A study of Mus musculus with 4 samples.

Results

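The H2 genes make up the major histocompatibility complex (MHC) of the mouse. They were taken as every gene of the RNA tables whose symbol starts with H2-, counted once per gene identifier, which gave 44 of 46320 genes. All 44 lay on chromosome 17, in a stretch of 3.51 Mb from 33974831 to 37483552 in the build mm10. By name, 2 were classical class I genes, 29 nonclassical class I genes, 5 class II genes, 7 genes of the class II peptide-loading group with the P genes, and 1, H2-Ke6, was no MHC molecule although it carries the name. RefSeq types 10 of the 44 as pseudogenes.

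The prefrontal cortex of 14 weeks old females was used for RNA-seq, in 2 libraries. These were first-generation hybrids of C57BL6J and Spretus, so each H2 gene was present as a C57 and a Spretus allele in the same cells. All animals carried a mutation of Xist, the noncoding RNA that silences an X chromosome, on the maternal allele. Each gene had an FPKM (fragments per kilobase of transcript, scaled to the library's fragments, with both alleles together) and a count of reads assigned to each allele. A matching methylation assay, MethylC-seq, also had 2 libraries and gave a list of regions whose methylation differed between alleles. Tissue was pooled over 2 individuals of separate litters. Separate animals per library are not named in the labels, so the p-values speak of the spread between libraries, which may be technical. Since the cross ran in 1 direction, an effect of strain and an effect of the parent cannot be told apart.

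Class I molecules pair a heavy chain with beta-2 microglobulin and show peptides made inside the cell to CD8 T cells and natural killer cells. The classical ones, H2-K and H2-D, are made by most cells, while the nonclassical Q, T and M genes are more restricted in tissue and in partner. Class II molecules pair an alpha with a beta chain, are loaded in endosomes with the help of H2-DM, and show peptides to CD4 T cells from professional antigen-presenting cells. In healthy brain, MHC expression is low and lies largely in microglia, in macrophages at the borders of the brain and in the vessel wall. H2 genes are among the most variable genes between mouse strains, and several are near-copies of each other, so a read may be hard to place on 1 gene or 1 allele.

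Allele-assigned reads numbered 4768237 in library 1 and 1291903 in library 2, so library 1 was 3.69 times as deep. Of these, 1445 and 295 reads fell in H2 genes. Over all autosomal reads the Spretus share was 47.9% in library 1 and 48.0% in library 2. The ratio of FPKM values, library 1 over library 2, had a median of 5.72 over 11976 genes (quartiles 4.91 and 6.69), so levels are compared within a library. All 12 microglial markers reached an FPKM of 1 in library 1 and 7 did in library 2, with summed FPKM of 175 and 24.7. The 4 neuronal markers summed to 1987 and 452. Of 10 dendritic, B and T cell markers, 2 reached an FPKM of 1 in library 1 and 0 in library 2 (sums 6.98 and 0.921). Among the T cell markers, Cd3e was listed at 0 in both, Cd3g at 0.409 and 0, and Cd8a at 0.0115 and 0. Of 5 perivascular macrophage markers, 2 reached an FPKM of 1 in library 1 and 0 in library 2 (sums 6.57 and 1.25). In bulk tissue, fewer cells of a type and less RNA per cell cannot be told apart.

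Along the locus, H2 expression was carried by few genes. In library 1, 17 of the 44 genes reached an FPKM of 1, and in library 2, 4 did (H2-K1, H2-Ke6, H2-DMa and H2-D1). The median FPKM was 0.394 in library 1 and 0.0444 in library 2, and 12 genes were listed at 0 in both libraries. H2-D1 was the highest member in both libraries, with an FPKM of 16.3 and 2.13, above 89.4% and 87.2% of all genes. H2-Ke6, H2-DMa and H2-K1 followed it, between 9.91 and 11.8 in library 1 and between 1.63 and 1.86 in library 2, in an order of H2-DMa and H2-K1 that differed between the libraries. Below them came H2-T23, H2-T22, H2-Aa and H2-Ab1, whose order also differed between libraries. Among the 16 members with an FPKM of at least 1 in library 1 and above 0 in library 2, the ratio of the libraries had a median of 6.64 and ran from 3.22 for H2-Ab1 to 29.2 for H2-M5. For 10 of the 16 it lay above the 5.72 of all genes. Median ratios of the marker lists, over genes above 0 in library 2, were 7.51 for microglia and 5.38 for perivascular macrophages. They were 7.08 for dendritic, B and T cells, 6.24 for endothelial cells and 7.06 for astrocytes. Oligodendrocytes had 9.39, neurons 4.65 and blood 14.2. The part of cell composition in the members' ratios was not tested.

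**Figure D1:**
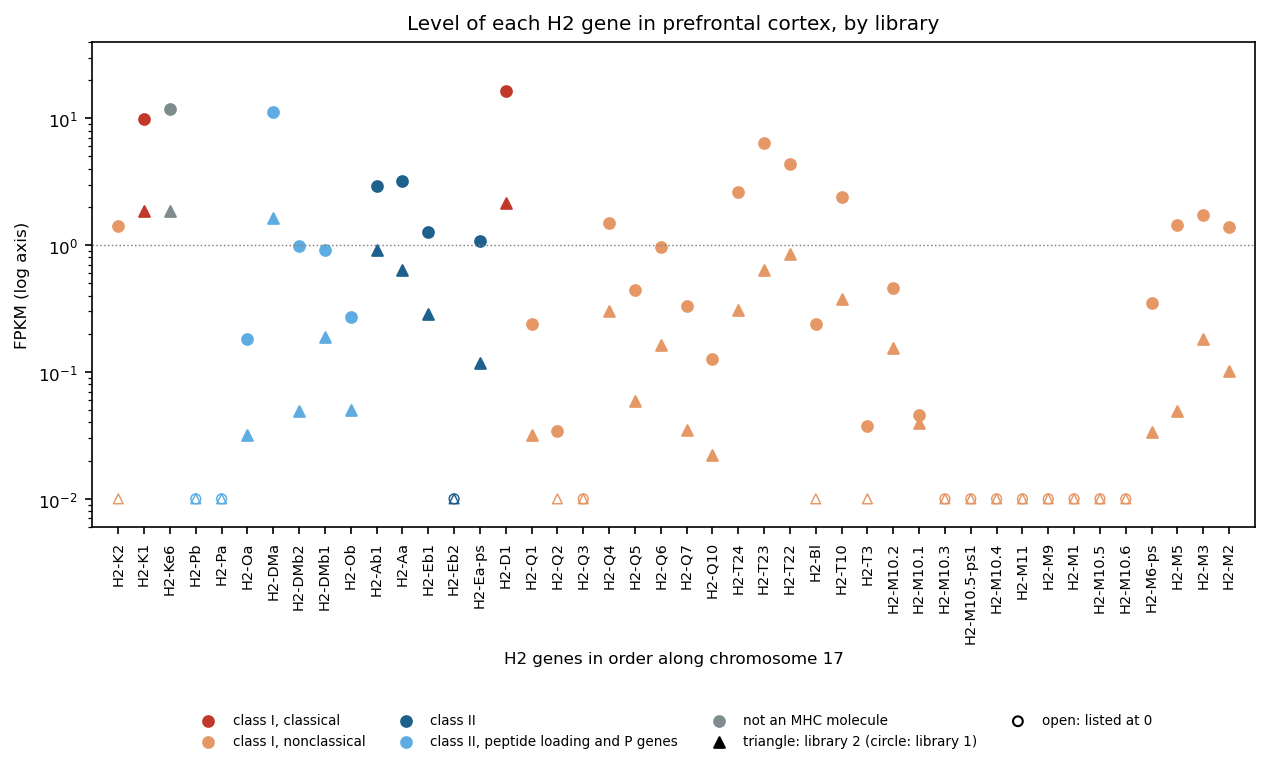
FPKM (log axis) of the 44 H2 genes in locus order along chromosome 17 in RNA library 1 and library 2, coloured by class, with values listed at 0 drawn at the foot of the plot. H2-D1 is highest at 16.3 and 2.13, and the M10 genes lie at or near 0.

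Reads were thin for most members. At least 1 allele-assigned read was seen for 30 members, in both libraries for 22 of them, and 14 members had none. The allele test was run where a gene had at least 10 such reads in each library, which 7 members had: H2-K1, H2-D1, H2-T23, H2-T22, H2-DMa, H2-Ab1 and H2-Aa. These 7 held 1092 of the 1445 H2 reads of library 1 and 239 of the 295 of library 2. Log2 ratios are Spretus over C57, so a negative value means more C57 reads, and intervals are exact 95% binomial intervals that cover counting error only.

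Of the 7 tested members, 3 were called at an adjusted p of 0.05 by edgeR's quasi-likelihood test, Benjamini-Hochberg adjusted over all genes. H2-T22 and H2-T23 had more C57 reads and H2-DMa had more Spretus reads. The share of all tested genes called was 8.56% (1026 of 11981), and of autosomal genes 5.45% (631 of 11584), 3.04% toward C57 and 2.41% toward Spretus. With the library as a block, the 2 toward C57 and the 1 toward Spretus were again called, against a background of 25.1% of all and 22.5% of autosomal genes, 11.3% toward C57 and 11.2% toward Spretus. DESeq2 called 1 of the 7, H2-T22, against 5.41% of all genes and 2.2% of autosomal ones, 1.15% toward C57. The median log2 ratio of the 7 was -0.11, beside 0.02 for autosomal genes, and their median size of change regardless of sign was 0.40, beside 0.21 for autosomal genes and 0.29 for tested neighbours in the same stretch. With 1 total shared by the alleles of a library, the median of all autosomal genes moved to -0.11 and 69.7% of autosomal calls went toward C57, beside 55.8% with separate scaling.

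**Figure D2:**
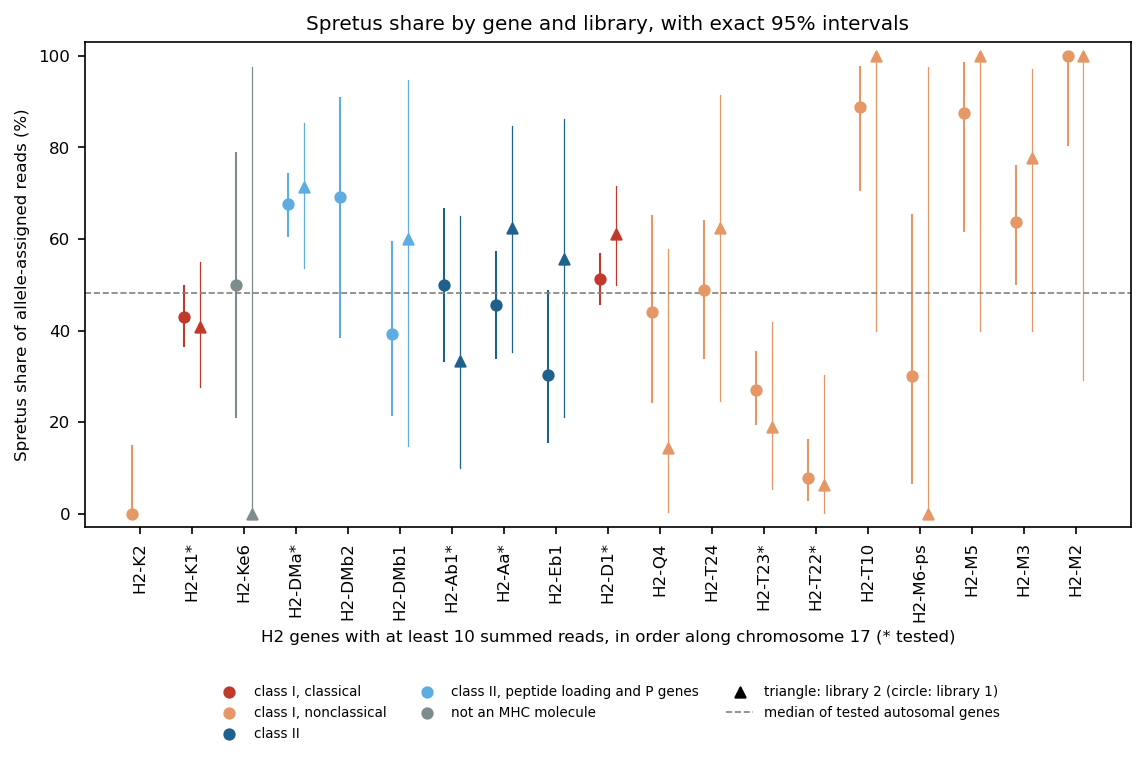
Spretus share of allele-assigned reads (%) with exact 95% intervals in library 1 (circles) and library 2 (triangles) for the 19 H2 genes with at least 10 summed reads in locus order, with the 7 tested genes starred and the autosomal median dashed. H2-T22 lies at 7.69% and 6.25%, H2-DMa at 67.7% and 71.4%, and H2-K1, H2-D1, H2-Ab1 and H2-Aa have intervals that reach 50% in at least 1 library.

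The classical class I genes H2-K1 and H2-D1 were the most strongly read members, and neither was called for allele imbalance. Their promoters are shown because both genes stand at the top of the class I levels and share long stretches. In RefSeq's GRCm38.p6, the C57BL/6J reference, a window runs from 250 bases before to 50 after the transcript start, and the sequences are printed 5′ to 3′ on the gene's strand. Capitals mark the motifs searched on both strands, which were CCAAT (Y box core), TGACGTCA and the looser TGANNTCA (X2 box type), a strict and a looser NF-kB motif and the interferon-stimulated response element. The looser forms of the X2 and NF-kB motifs overlap the stricter ones. The interferon-stimulated response element was searched in a single form, and looser forms of it were not marked. The H2-K1 window is chr17:34000298-34000597 on the minus strand, the first of 2 that RefSeq gives, and the H2-D1 window is chr17:35262844-35263143 on the plus strand.
H2-K1: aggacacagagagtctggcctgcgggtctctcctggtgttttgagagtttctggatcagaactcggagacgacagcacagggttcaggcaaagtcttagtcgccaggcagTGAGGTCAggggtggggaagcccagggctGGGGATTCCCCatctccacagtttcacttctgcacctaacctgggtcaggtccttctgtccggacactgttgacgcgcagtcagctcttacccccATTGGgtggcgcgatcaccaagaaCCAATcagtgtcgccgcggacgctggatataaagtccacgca
H2-D1: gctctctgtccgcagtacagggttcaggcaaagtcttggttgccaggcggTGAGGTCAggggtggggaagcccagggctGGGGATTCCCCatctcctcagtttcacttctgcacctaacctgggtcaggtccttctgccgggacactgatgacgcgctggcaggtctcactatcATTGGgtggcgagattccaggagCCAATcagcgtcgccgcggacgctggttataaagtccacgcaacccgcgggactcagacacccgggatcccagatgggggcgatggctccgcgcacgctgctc
Over the aligned part, 211 of 239 bases were identical (88.3%), with a longest shared run of 47 bases. Both windows held CCAAT letters, TGANNTCA and the strict NF-kB motif. The last of these was found in 10 of 32851 windows (0.0304%), and 4 of the 10 belonged to H2-K1, H2-D1 and H2-Q6. A match of letters is a description of the reference and says nothing of binding in these samples. Whether the TGANNTCA letters of H2-K1 and H2-D1 lie at the X2 box of these genes was not tested.

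H2-K1 (33996017 to 34000333, heavy chain of H2-K) had an FPKM of 9.91 in library 1 and 1.85 in library 2. It held 131 C57 and 99 Spretus reads in library 1, and 32 and 22 in library 2. The Spretus share was 43.0% (36.6 to 49.7) and 40.7% (27.6 to 55.0), or 41.9% ± 1.63 (SD, n = 2), below 50% in both libraries. The log2 ratio was -0.31 (SE 0.22, adjusted p = 0.537 by edgeR's quasi-likelihood test, Benjamini-Hochberg adjusted). H2-D1 (35262730 to 35267499, heavy chain of H2-D) held 166 C57 and 175 Spretus reads in library 1, and 33 and 52 in library 2. Its Spretus share was 51.3% (45.9 to 56.7) and 61.2% (50.0 to 71.6), or 56.2% ± 6.97 (SD, n = 2), and its log2 ratio was 0.40 (SE 0.19, adjusted p = 0.314 by edgeR's quasi-likelihood test). The intervals of the libraries overlapped for each gene. Neither gene was called by DESeq2 or with the library as a block, and 0 of the 2 had an unadjusted edgeR p under 0.05.

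Beside H2-K1, the transcribed pseudogene H2-K2 (33974831 to 33978790) had an FPKM of 1.41 in library 1 and 0 in library 2. It held 23 C57 and 0 Spretus reads in library 1 and none in library 2. The Spretus share was 0%, with an exact interval that reaches 14.8%. Summed, H2-K1 and H2-K2 held 154 C57 and 99 Spretus reads in library 1, and the Spretus share over the libraries was 39.9% ± 1.14 (SD, n = 2). The sources used here do not give how reads were divided between such near-copies, and the values of near-copies are uncertain.

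Among the nonclassical class I genes, the T genes as a set held more C57 reads, most of them from H2-T23 and H2-T22. The 5 T genes summed to 194 C57 and 89 Spretus reads in library 1 and to 35 and 14 in library 2, a Spretus share of 30.0% ± 2.03 (SD, n = 2). H2-T23 encodes Qa-1, which shows leader peptides of class I molecules to the inhibitory CD94/NKG2A receptor. H2-T22 encodes a molecule that needs no peptide and is a ligand of gamma delta T cells. The promoters of these genes are shown because they were the members called toward C57. They were also the 2 of 31 matched members whose windows held the searched form of the interferon-stimulated response element. That form stood in 3.44% of all windows. Looser forms were not searched, so whether other windows, including those of H2-K1 and H2-D1, hold such an element was not tested. The H2-T23 window is chr17:36032652-36032951 and the H2-T22 window chr17:36042693-36042992, both on the minus strand of RefSeq's GRCm38.p6, with capitals for the same motifs.
H2-T23: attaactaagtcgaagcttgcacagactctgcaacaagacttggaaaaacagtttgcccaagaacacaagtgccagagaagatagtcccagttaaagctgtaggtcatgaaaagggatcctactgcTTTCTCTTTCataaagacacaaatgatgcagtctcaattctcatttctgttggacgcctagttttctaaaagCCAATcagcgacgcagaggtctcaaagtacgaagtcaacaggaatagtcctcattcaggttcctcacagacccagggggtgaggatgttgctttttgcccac
H2-T22: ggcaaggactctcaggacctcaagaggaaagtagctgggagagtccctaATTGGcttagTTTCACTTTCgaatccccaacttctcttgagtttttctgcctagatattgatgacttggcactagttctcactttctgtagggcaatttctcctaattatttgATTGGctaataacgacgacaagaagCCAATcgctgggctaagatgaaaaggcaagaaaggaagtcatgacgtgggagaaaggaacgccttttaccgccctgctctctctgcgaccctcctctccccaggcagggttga
The windows were 80.0% identical over 215 aligned bases, with a longest shared run of 9. Against the window of the class II gene H2-Aa, H2-T22 was 77.3% identical over 97 aligned bases (longest run 10). H2-T23 was 72.5% identical to it over 240 (longest run 8). The letters are those of the C57 reference, and the Spretus sequence was not used here.

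H2-T22 (36037128 to 36042747) had the most unequal reads of the 7 tested members. Its FPKM was 4.35 in library 1 and 0.855 in library 2. It held 72 C57 and 6 Spretus reads in library 1, and 15 and 1 in library 2. The Spretus share was 7.69% (2.88 to 16.0) and 6.25% (0.158 to 30.2), or 6.97% ± 1.02 (SD, n = 2), with both intervals below 50%. The log2 ratio was -3.45 (SE 0.40, adjusted p = 7.28e-05 by edgeR's quasi-likelihood test, Benjamini-Hochberg adjusted). DESeq2 gave -3.49 with an adjusted p of 3.80e-04.

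H2-T23 (36029773 to 36032855) had an FPKM of 6.41 and 0.637. It held 95 C57 and 35 Spretus reads in library 1, and 17 and 4 in library 2, so C57 reads prevailed in both. The Spretus share was 26.9% (19.5 to 35.4) and 19% (5.45 to 41.9), or 23% ± 5.57 (SD, n = 2). The log2 ratio was -1.38 (SE 0.34, adjusted p = 0.0261 by edgeR's quasi-likelihood test), and the call was lost with DESeq2 (-1.44, adjusted p = 0.172).

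H2-T10, typed by RefSeq as a transcribed pseudogene, is a close relative of H2-T22 and showed the opposite allele. With an FPKM of 2.38 and 0.373, it held 3 C57 and 24 Spretus reads in library 1, and 0 and 4 in library 2, which gave a Spretus share of 90.3% (74.2 to 98.0) over both. Summed, H2-T10 and H2-T22 held 75 C57 and 30 Spretus reads in library 1 (28.6%, 20.2 to 38.2) and 15 and 5 in library 2 (25.0%, 8.66 to 49.1), so the sum was less unequal than either gene. H2-T24 held 24 C57 and 23 Spretus reads in library 1 and 3 and 5 in library 2, which gave a share of 50.9% (37.1 to 64.6) at an FPKM of 2.61 and 0.310. H2-T3 had 1 read, and the pseudogene H2-Bl had 4, all of C57.

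Overlap with another listed gene was found for 8 members, among them H2-T24, H2-T23, H2-T22 and H2-T10. A930015D03Rik (35994453 to 36038435), a listed gene that overlaps H2-T24, H2-T23 and H2-T22, had an FPKM of 0.106 and 0 but held 6 C57 and 38 Spretus reads in library 1 and 3 and 19 in library 2 (log2 ratio 2.80, SE 0.49, adjusted p = 0.00235 by edgeR's quasi-likelihood test). BC023719 (36111426 to 36117121), which overlaps H2-T10, was listed at an FPKM of 0 in both libraries yet held 0 C57 reads and 45 and 15 Spretus reads. The sources used here do not give whether counting used strand, so the split of reads between the T genes and these genes is uncertain. Its part in the H2-T22 and H2-T23 ratios was not tested. The tested members that overlap another gene are H2-T22 and H2-T23, which also had the lowest shares of the 7. Without them, the median Spretus share of the 5 remaining tested members was 54.0%, beside 41.9% for all 7. A higher median follows from leaving out the lowest shares and says nothing of the overlap.

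The Q genes, which include those of the Qa-2 antigen, were weakly read. H2-Q4 led them with an FPKM of 1.49 and 0.300. It held 14 C57 and 11 Spretus reads in library 1 and 6 and 1 in library 2, which gave a share of 37.5% (21.1 to 56.3). The other 7 Q genes had FPKM values below 1, of which H2-Q6 was highest at 0.969 and 0.163. All 8 summed to 26 C57 and 23 Spretus reads in library 1 and 6 and 3 in library 2. No Q gene was called when the minimum of reads was removed, a fit described below that did call other members with few reads. For H2-Q4 that fit put Spretus over C57 at -0.64 on the log2 scale. Its adjusted p was 0.711 by edgeR's quasi-likelihood test. A small imbalance could be missed at this depth.

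The M genes as a set held more Spretus reads, and none had enough reads for the test. The 14 M genes summed to 30 C57 and 71 Spretus reads in library 1 (70.3%, 60.4 to 79.0) and to 3 and 14 in library 2 (82.4%, 56.6 to 96.2), or 76.3% ± 8.52 (SD, n = 2). The reads came from 4 of the 14. H2-M3, which shows N-formylated peptides of bacteria and mitochondria, had an FPKM of 1.74 and 0.181. It held 21 C57 and 37 Spretus reads in library 1 and 2 and 7 in library 2, which gave a share of 65.7% (53.1 to 76.8). H2-M2, at 1.38 and 0.102, held 0 C57 reads in both libraries and 17 and 3 Spretus reads, a share of 100% (83.2 to 100). H2-M5, at 1.45 and 0.0495, held 2 C57 and 14 Spretus reads in library 1 and 0 and 4 in library 2, which gave a share of 90% (68.3 to 98.8). H2-M6-ps, a pseudogene, held 7 and 3 and then 1 and 0. The 7 M10 genes, known from the vomeronasal organ, had no read. Of these, 5 were listed at 0 in both libraries, and H2-M10.2 and H2-M10.1 reached at most 0.460.

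When the minimum of reads was removed, 30 members could be tested and 7 were called by edgeR's quasi-likelihood test, Benjamini-Hochberg adjusted, against 7.90% of all and 5.84% of autosomal genes, 3.12% toward C57 and 2.71% toward Spretus. Beyond the 3 above, they were H2-K2 (adjusted p = 8.56e-05) toward C57 and H2-T10 (3.02e-04), H2-M5 (0.00934) and H2-M2 (8.17e-05) toward Spretus. For H2-K2 the call rests on library 1, since library 2 held no read of it. These calls were made without a floor on counts and stand on 20 to 31 reads per gene.

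Of the 5 class II genes, 2 could be tested and 0 were called. H2-Aa and H2-Ab1, the alpha and beta chains of the I-A molecule, had FPKM values of 3.19 and 0.632, and of 2.94 and 0.913. The H2-Aa promoter is shown as the class II counterpart and as the 1 of 31 members whose window held TGACGTCA, found in 1.79% of all windows. It is chr17:34287774-34288073 on the minus strand of RefSeq's GRCm38.p6, with capitals for the motifs named above.
H2-Aa: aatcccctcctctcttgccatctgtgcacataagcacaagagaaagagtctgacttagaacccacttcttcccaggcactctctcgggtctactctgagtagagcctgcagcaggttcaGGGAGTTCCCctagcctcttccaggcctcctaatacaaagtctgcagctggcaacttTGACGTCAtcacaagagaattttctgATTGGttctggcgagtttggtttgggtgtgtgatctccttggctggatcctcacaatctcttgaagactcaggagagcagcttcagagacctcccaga
Against the H2-K1 window it was 71.9% identical over 171 aligned bases, with a longest shared run of 8. Over all members, CCAAT was found for 28 of the 31 matched genes (90.3%), beside 37.4% of all windows, and TGANNTCA for 7 (22.6%), beside 14.1%. Members are counted by gene, which may have more than 1 window, and the background by window, so these shares have unlike units.

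H2-Aa (34282744 to 34287827) held 42 C57 and 35 Spretus reads in library 1 and 6 and 10 in library 2. The Spretus share was 45.5% (34.1 to 57.2) and 62.5% (35.4 to 84.8), on opposite sides of 50%, or 54.0% ± 12.1 (SD, n = 2). H2-Ab1 (34263209 to 34269418) held 19 reads of each allele in library 1 and 8 and 4 in library 2, a Spretus share of 50.0% (33.4 to 66.6) and 33.3% (9.92 to 65.1), or 41.7% ± 11.8 (SD, n = 2). The log2 ratios were 0.08 (SE 0.33, adjusted p = 0.979) and -0.11 (SE 0.37, adjusted p = 0.953) by edgeR's quasi-likelihood test, smaller than their errors. With 1 total shared by the alleles, that of H2-Aa turned to -0.03. Of the 2, DESeq2 called 0, and 0 had an unadjusted edgeR p under 0.05.

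H2-Eb1, the beta chain of the I-E molecule, had an FPKM of 1.28 and 0.286. It held 23 C57 and 10 Spretus reads in library 1, and 4 and 5 in library 2, on the other side of 50%. The Spretus share in library 1 was 30.3% (15.6 to 48.7), an interval below 50% that holds the 47.9% of autosomal reads. Over both the share was 35.7% (21.6 to 52.0). H2-Ea-ps is the I-E alpha chain gene, which is a pseudogene in C57BL/6 mice. It had an FPKM of 1.08 and 0.117, and its 7 reads (6 and 1) were all assigned to Spretus, a share of 100% (59.0 to 100). H2-Eb2 was listed at 0. All class II genes together held 84 C57 and 70 Spretus reads in library 1 and 18 and 20 in library 2, or 49.0% ± 5.07 (SD, n = 2).

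In the class II peptide-loading group, H2-DMa had the highest FPKM in both libraries and was the 1 member with enough reads for the test. It encodes the alpha chain of H2-DM, which exchanges the invariant chain fragment CLIP for peptide. H2-DMa (34135182 to 34139101) had an FPKM of 11.2 and 1.63, against 0.908 and 0.187 for H2-DMb1 and 0.982 and 0.0490 for H2-DMb2, the genes of its partner chain. It held 64 C57 and 134 Spretus reads in library 1 and 10 and 25 in library 2. The Spretus share was 67.7% (60.7 to 74.1) and 71.4% (53.7 to 85.4), or 69.6% ± 2.65 (SD, n = 2), with both intervals above 50%. The log2 ratio was 1.23 (SE 0.28, adjusted p = 0.0139 by edgeR's quasi-likelihood test, Benjamini-Hochberg adjusted). The call was lost with 1 total shared by the alleles (1.09, adjusted p = 0.0600) and with DESeq2 (1.25, adjusted p = 0.109). H2-DMb1 held 17 C57 and 11 Spretus reads in library 1. With 2 and 3 in library 2, its Spretus share over both was 42.4% (25.5 to 60.8). H2-DMb2 held 4 and 9 in library 1 and none in library 2, a share of 69.2% (38.6 to 90.9) that lay close to that of H2-DMa with a wide interval. H2-Ob, a chain of the DM inhibitor H2-DO, held 3 C57 and 5 Spretus reads in library 1 and 0 and 1 in library 2, or 66.7% (29.9 to 92.5). H2-Oa, the other chain, held 2 reads, both of C57, and H2-Pa and H2-Pb were listed at 0.

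H2-Ke6 (34026033 to 34028060), a hydroxysteroid dehydrogenase of mitochondria and no MHC molecule, had the fewest allele reads for its level among the 17 members with an FPKM of at least 1 in library 1. At an FPKM of 11.8 and 1.86 it held 6 reads of each allele in library 1 and 1 C57 read in library 2. Reads per unit of FPKM were therefore compared in library 1 with 2364 autosomal genes that span 2 to 8 kb. Their median was 13.8 reads per FPKM (quartiles 6.07 and 27.0), H2-Ke6 had 1.01, and the 14 members in that range of span had a median of 17.2, with 9 of the 14 above 13.8. H2-M3 had the most at 33.3. H2-Ke6 overlaps the listed gene Gm20427, and the part of that overlap in its low value was not tested. H2-T22 and H2-DMa, with opposite allele ratios, had 17.9 and 17.7. Both therefore had more allele reads for their level than the median gene. This measure does not show whether reads of the alleles were placed equally well, which was not tested.

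**Figure D3:**
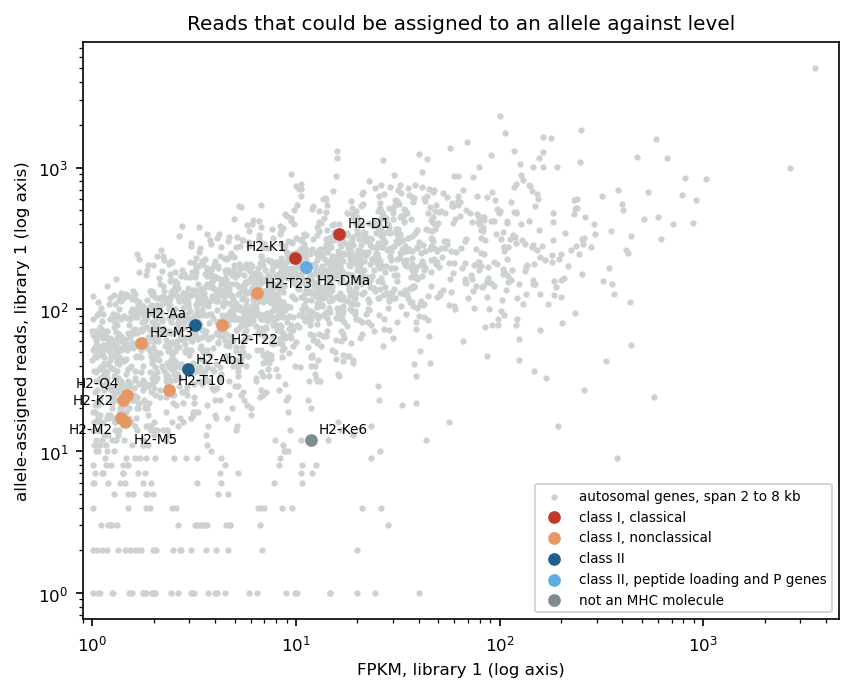
Allele-assigned reads against FPKM in library 1 (both log axes) for autosomal genes spanning 2 to 8 kb (grey) and for the 14 H2 genes of that span, coloured by class. H2-Ke6 lies low with 12 reads at 11.8, and the other members lie within the cloud.

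Summed over all 44 members, the alleles were near equal, with 753 C57 and 692 Spretus reads in library 1 (47.9%, 45.3 to 50.5) and 141 and 154 in library 2 (52.2%, 46.3 to 58.0). The mean Spretus share was 50.0% ± 3.05 (SD, n = 2), beside 47.9% over autosomal reads. It was 52.5% without H2-T22, 55.2% without H2-T22 and H2-T23, and 47.2% without H2-DMa. The classical class I genes had 50.6% ± 3.71, the nonclassical 40.6% ± 1.10, class II 49.0% ± 5.07 and the loading group 66.6% ± 3.49 (SD, n = 2). These sums are weighted by the few well-read genes in each group.

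**Figure D4:**
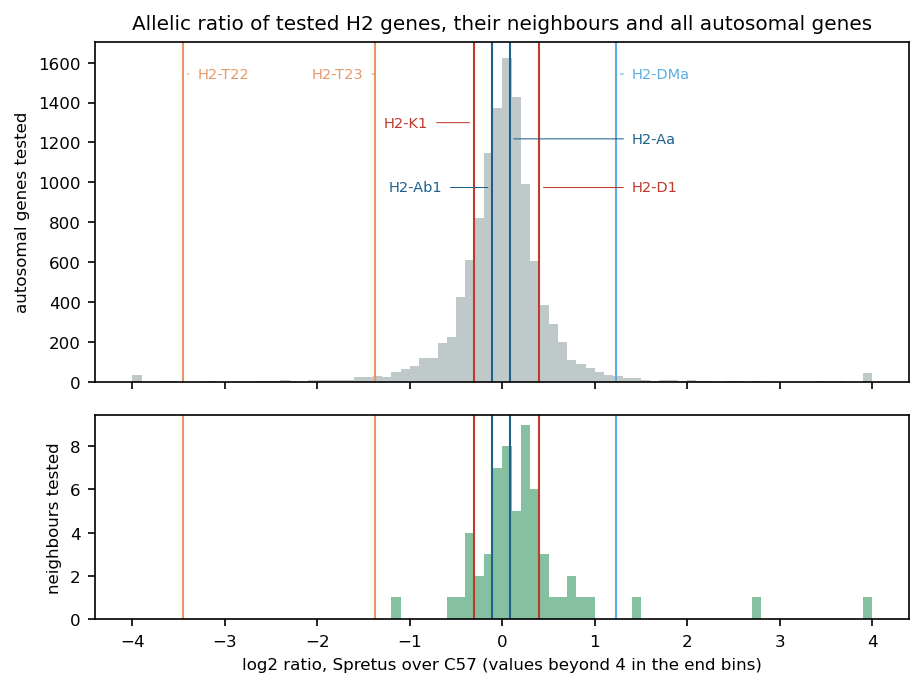
Number of tested autosomal genes (top) and of tested neighbours within the H2 stretch (bottom) by log2 ratio of Spretus over C57, with a line for each of the 7 tested H2 genes. H2-T22 at -3.45, H2-T23 at -1.38 and H2-DMa at 1.23 lie in the tails, and the other 4 lie between -0.31 and 0.40.

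The other genes of the stretch give the local background. Between the first and the last member start lay 276 other genes, of which 59 could be tested. Of these, edgeR called 3, all toward Spretus, against a background of 5.45% of autosomal genes. DESeq2 also called 3. They were A930015D03Rik and BC023719, described above, and Col11a2 (34039437 to 34066685), a collagen chain, with 85 C57 and 203 Spretus reads in library 1 and 9 and 31 in library 2 (log2 ratio 1.43, SE 0.31, adjusted p = 0.0115 by edgeR's quasi-likelihood test). The split of reads between A930015D03Rik, BC023719 and the T genes is uncertain, so the shared direction of the 3 calls is uncertain too. With the library as a block 11 were called, 2 toward C57 and 9 toward Spretus, against 22.5% of autosomal genes. The neighbours' median Spretus share was 50.5% and their median log2 ratio 0.15, beside 41.9% and -0.11 for the 7 members.

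Methylation that differed between alleles was called at 5 places in the H2 stretch. The authors' deposited table held 1600 regions with levels. Of these, 1006 were autosomal, 47 lay on chromosome 17 and 5 between the first and last H2 gene. None overlapped a member or lay within 2 kb of one, and 2 lay within 10 kb. The share of all genes with a region this near was not computed, so whether these counts are low or high is not known. The nearest, chr17:35260090-35260144, 2586 bp before H2-D1, had a methylation level of 0.960 on C57 and 0.282 on Spretus in the authors' deposited table. The other, chr17:35997783-35998001, lay in A930015D03Rik and 7694 bp from H2-T24, with 0.496 and 0.107 in the authors' deposited table. Of the remaining 3, which lay 13.1 to 39.4 kb from an M10 gene, chr17:36252432-36252503 was the 1 region of the 5 with the higher level on Spretus, at 0.898 against 0.0157 in the authors' deposited table. Coverage is unknown, and the level of a place outside the list is not known.

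The partner genes of the pathway lie mostly outside the H2 stretch. Of 48 listed genes of antigen presentation, interferon signalling and MHC-like molecules outside the locus, 47 were found in the RNA tables. Of these, 35 could be tested and 1 was called, toward C57. It was Ifngr2, a chain of the interferon gamma receptor, with 186 C57 and 91 Spretus reads in library 1 and 62 and 20 in library 2 (log2 ratio -1.12, SE 0.22, adjusted p = 0.00589 by edgeR's quasi-likelihood test). With the library as a block 8 of the 35 were called, 4 in each direction. Of these 8, 5 were among the 11 tested genes of interferon signalling, which include Ifngr2. The background of autosomal genes called was 5.45%, and 22.5% with the block. The 35 tested genes had a median Spretus share of 47.6% and a median log2 ratio of -0.02.

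In the class I pathway 0 of 12 tested genes were called by edgeR, 2 had an unadjusted p under 0.05, DESeq2 called 0 and the block fit 2. B2m, the shared light chain, had an FPKM of 99.2 and 22, with 234 C57 and 241 Spretus reads in library 1 and 92 and 88 in library 2. Tapbp, which edits peptides on class I molecules, stood at 12.7 and 2.99. Tap1 and Tap2, the peptide transporter, stood at 2.2 and 0.367, and at 1.52 and 0.248. Tap1 held 27 C57 and 49 Spretus reads in library 1 and 5 of each in library 2 (log2 ratio 0.85, SE 0.38, adjusted p = 0.257 by edgeR, and 0.0285 in the adjusted p of the block fit). The immunoproteasome subunits Psmb8 and Psmb9 reached 2.39 and 0.957 in library 1, and Nlrc5, the class I transactivator, 0.345.

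In the class II pathway 0 of 9 tested genes were called by edgeR, 1 had an unadjusted p under 0.05, DESeq2 called 0 and the block fit 1. Cd74, the invariant chain, had an FPKM of 6.43 and 1.39, with 66 C57 and 63 Spretus reads in library 1 and 21 and 17 in library 2. Ciita, the class II transactivator, stood at 0.151 and 0.0220. Of the MHC-like genes outside the locus, 3 of 9 could be tested, 0 were called by edgeR or DESeq2, and 0 had an unadjusted p under 0.05.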

How the data were processed

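Per the file headers, each RNA table deposited by the authors gave 1 FPKM per gene and, for the C57 allele and the Spretus allele separately, the raw counts of reads. They also deposited a region list with a methylation level per allele as a fraction from 0 to 1. A stranded kit was used after removal of ribosomal RNA, per the labels' protocols. The build mm10 and the tools bedtools 2.2.4, HTSeq 0.6.0, Cufflinks 2.1.1 and TopHat2 2.0.9 stand in the submitters' processing notes. Not given in the sources used here are the assignment of reads to alleles or genes, the annotation, the use of strand and the thresholds of the region list. This bears on near-copies and overlapping genes.

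Of 46386 rows, 49 identifiers stood at more than 1 locus with equal counts and were used once. All 44 H2 identifiers matched the table of gene names, and 43 were found in RefSeq under the same symbol. Gene starts are given counted from 1, which matched the RefSeq start for 11 members against 1 as listed. Regions without levels (13 of 1613) were left out, and region coordinates are as listed.

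Counts were tested with edgeR 4.0.16 (glmQLFit, glmQLFTest, TMM) in R 4.3.3, two-sided, with a C57 and a Spretus column per library, allele as the only term, at least 10 reads of the alleles together in each library and Benjamini-Hochberg adjustment over all 11981 genes tested at 0.05. Residual degrees of freedom were 2. The script was tested on simulated data. Both alleles of a library are read from 1 RNA sample and so pair by design. Their deviations had a correlation of 0.597 over 7565 autosomal genes with at least 200 reads. Alternatives were a replicate block, DESeq2 1.42.0, other scalings and read minimums, and each library left out. Intervals are exact Clopper-Pearson intervals, and reads carry no molecular identifiers.

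Members with at least 10 reads in each library are given in full, those with an FPKM of at least 1 by FPKM and counts, and the rest by counts and ranges. Pathway genes are named where called or picked by role, and neighbours where called. Members and lists were chosen with earlier results of these data known. Reads per FPKM were to be scaled by coding length. Without a protein table, genes of similar span were used in its place, and this was chosen after seeing the data. Promoters are RefSeq windows of GRCm38.p6, matched by symbol for 31 members.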

Additional observations from a re-analysis of the deposited data

How the results depend on the processing

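Genes called over all 1026 became 1808 without a read minimum, 3005 with the replicate block and 648 with DESeq2. H2 members called (3 of 7) became 7 of 30 without a read minimum, 2 of 7 with a total shared by the alleles and 1 of 7 with DESeq2. With at least 20 reads in each library 2 of 4 were called, and H2-T22 had too few reads to be tested. The count stayed at 3 with the replicate block, which pairs the alleles of a library. The block changed no call of a tested member. Pathway genes called (1) became 2 with a total shared by the alleles, 2 without a read minimum and 8 with the replicate block. The members' median Spretus share of 41.9% became 49.1% with at least 20 reads in each library (4 members) and 46.3% with at least 5 (12 members). It became 54.0% without the overlapping members H2-T22 and H2-T23, which had the lowest shares, and 40.7% to 45.5% with either library left out. Members at an FPKM of 1 in both libraries (4) became 8 at a minimum of 0.5, 1 at a minimum of 2, 13 with library 2 scaled up by the median library ratio, and 4 to 17 with either library left out. Regions near members (0 within 2 kb) became 2 within 10 kb. With the shared total, the log2 ratio of H2-Aa turned to -0.03 and that of B2m to -0.01, and with the replicate block that of Cd74 turned to 0.01. None of these was called in either fit, and the cause was not tested. Over the alternatives with a test, H2-T22 stayed called, from -3.56 to -3.43, while H2-T23 ran from -1.51 to -1.37 (adjusted p from 1.15e-05 to 0.172) and H2-DMa from 1.09 to 1.25 (5.03e-07 to 0.109), by edgeR or DESeq2. Depth left 7 of the 44 members with enough reads in each library for the test.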
